A study of Arabidopsis thaliana with 18 samples.

Results

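BZIP63 (AT5G28770, also BZO2H3) and BZIP2 (AT2G18160, also GBF5) are 2 genes for basic leucine zipper (bZIP) transcription factors, and they were chosen by locus name, as the lines of the deposited table that carry these loci. The table held 11437 genes, and each of the 2 loci had 1 line with a locus name and gene identifier that match each other. Transcript levels were measured by RNA sequencing in whole Arabidopsis thaliana seedlings of ecotype Col-0, 14 days old, raised on 1/2MS medium under days of 12 h light and nights of 12 h. Times are zeitgeber times (ZT), the hours since the lights came on. There were 6 groups with 3 libraries each. Untreated seedlings were taken at ZT 0, just before light. All other seedlings were moved at ZT 0 to fresh medium and taken at ZT 2: the control medium held 0.1% DMSO, a solvent, and the others held 10 µM DPI, 25 µM pentamidine isethionate (PI), 12.5 µM AEG3482 (AEG) or 2 µM Tyrphostin AG879 (TYR). The short names PI, AEG and TYR were tied to these chemicals by their letters, and the labels do not say whether the chemical media also held DMSO. The series title calls the chemicals modifiers of sugar signalling. Nothing in the labels says how many seedlings made a sample or whether the samples of a group were grown separately, so p-values measure the spread between these samples, which may be technical.

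Plant bZIP proteins bind DNA as pairs, and many of them recognise elements with the letters ACGT at their centre. BZIP63 belongs to group C and BZIP2 to group S1 of the family, and proteins of these groups pair with each other. The C/S1 network is known for reprogramming metabolism when sugar is short: the energy-sensing kinase SnRK1 phosphorylates BZIP63, and sucrose holds back translation of S1 messenger RNAs through a short upstream reading frame. BZIP63 has also been reported to bind the promoter of the clock gene PRR7, which was not analysed here. The levels below are of transcripts, so protein and phosphorylation were not measured.

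The 250 bases before the start of BZIP63 are shown because its transcript level fell at dawn in every comparison with untreated seedlings. They were read from the RefSeq genome TAIR10.1 at chr5:10798306-10798555, minus strand, and are written 5′ to 3′ on the strand of the gene. The start is the outer end of the annotated gene, which has 4 RefSeq transcripts, and their single starts were not used. The window did not overlap another protein-coding gene.
BZIP63: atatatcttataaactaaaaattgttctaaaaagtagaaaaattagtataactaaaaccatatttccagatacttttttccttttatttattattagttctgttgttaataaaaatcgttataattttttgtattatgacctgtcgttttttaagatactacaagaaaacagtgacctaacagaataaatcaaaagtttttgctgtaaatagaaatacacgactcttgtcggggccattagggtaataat
The window held none of the motifs searched on both strands, so no letter is in capitals. These were, with the share of 27443 protein-coding genes that held each in a window of this length, the ACGT core (44.1%), the G-box CACGTG, which contains that core (6.49%), the ACTCAT element known from bZIP target genes (12.3%), the evening element AAAATATCT (2.36%), the CCA1-binding site AAAAATCT (6.69%), the I-box core GATAA (54.9%) and the TATCCA element (13.6%). The lack of a match describes these letters in this window only.

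Between 3156993 and 3249697 counts per library fell on the listed genes, and a floor of 3 counts came to between 0.923 and 0.950 CPM, the counts scaled to library size. The leaf markers LHCB2.1 and PSBO1, which code for photosystem proteins, had at least 15888 counts in every library. The root markers EXPA7 and PLT1 had at most 9 counts and the seed storage genes CRA1 and CRU3 at most 2. Of 12 tissue markers listed, only these 6 were in the table, so the others could not be checked. The libraries thus showed little root signal by these markers. Libraries at ZT 2 fell into 2 ranges of FSD1, an iron superoxide dismutase gene: 5 held between 3041 and 5101 counts and 10 held between 0 and 15, while untreated libraries held between 5492 and 5857. The 5 were replicate 1 of DMSO, DPI, PI and AEG, and replicate 3 of TYR. In the 5 libraries BZIP63 spanned 43.1 to 85.4 CPM and BZIP2 214 to 255 CPM, and in the 10 libraries they spanned 35.7 to 95.05 CPM and 213 to 356 CPM. For both genes the span of the 5 lay within that of the 10, though BZIP2 exceeded 255 CPM only among the 10. Whether either gene differed between the 2 ranges was not tested. With log2 CPM of FSD1 as a covariate the dawn changes described next were -1.51 for BZIP63 and 1.15 for BZIP2 on the log2 scale, both still called. All untreated libraries held high FSD1, so this covariate was partly tied to time.

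BZIP63 fell and BZIP2 rose over the first 2 h after lights on. BZIP63 stood at 211, 202 and 178 CPM in the untreated libraries and at 85.4, 35.7 and 95.05 CPM in the DMSO libraries. Every DMSO library lay below every untreated one. The mean went from 197 ± 17.2 to 72.1 ± 31.9 CPM (SD, n = 3). The log2 fold change was -1.45 (SE 0.26; 95% confidence interval -1.99 to -0.90; edgeR quasi-likelihood test, Benjamini-Hochberg adjusted p = 0.000221), a level 2.73-fold lower. Of 9006 genes tested, 35.6% were called in this comparison, 1438 of them lower, and 192 genes, or 2.13%, had a larger decrease. Fewer cells with the transcript and less of it per cell cannot be told apart in whole seedlings, and the move, the DMSO, light and time were joined in this comparison, which is called the change at dawn below.

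BZIP2 stood at 113, 113 and 118 CPM in the untreated libraries and at 251, 218 and 356 CPM with DMSO. Here every DMSO library lay above every untreated one. The mean went from 115 ± 3.12 to 275 ± 71.6 CPM (SD, n = 3). The log2 fold change was 1.26 (SE 0.17; 95% confidence interval 0.91 to 1.61; edgeR, adjusted p = 7.89e-06), a level 2.40-fold higher. Of the genes tested, 19.6% were called higher, and 681, or 7.56%, had a larger increase. Groups that do not overlap were common in this comparison, at 49.4% of all genes.

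**Figure D1:**
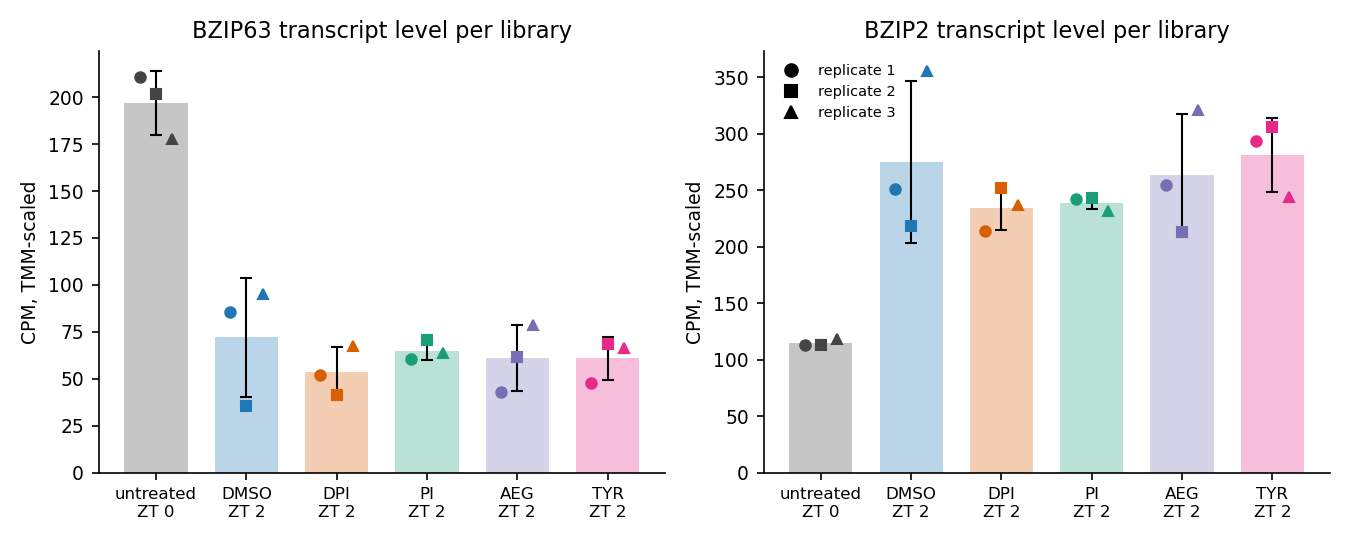
Transcript level of BZIP63 (left) and BZIP2 (right) in CPM scaled with TMM factors, with 1 point per library, bars at the group mean and error bars of 1 SD (n = 3). All 15 ZT 2 libraries lie below the untreated libraries for BZIP63 (35.7 to 95.05 against 178 to 211 CPM) and above them for BZIP2 (213 to 356 against 113 to 118 CPM).

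The same directions were found in each chemical at ZT 2 against the untreated libraries, which all 5 comparisons share. For DPI, PI, AEG and TYR in turn, the share of all genes called was 40.1%, 38.0%, 40.0% and 37.4%, and the groups did not overlap for 50.5%, 54.5%, 54.6% and 52.1%. BZIP63 was called lower in every one, with log2 fold changes of -1.88 (DPI), -1.60 (PI), -1.69 (AEG) and -1.69 (TYR), and edgeR adjusted p = 1.46e-05, 8.05e-05, 4.12e-05 and 4.57e-05 in that order. The shares of all genes called lower were 18.4%, 17.8%, 18.8% and 17.3%. BZIP2 was called higher in every one, with log2 fold changes of 1.03 (DPI), 1.06 (PI), 1.198 (AEG) and 1.29 (TYR), and edgeR adjusted p = 6.24e-05, 5.08e-05, 1.15e-05 and 5.68e-06 in that order. The shares of all genes called higher were 21.7%, 20.2%, 21.2% and 20.1%. Over the 15 ZT 2 libraries BZIP63 had a median of 63.6 CPM and BZIP2 a median of 244 CPM.

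Each chemical was then set against DMSO to ask whether it moved either gene at ZT 2. Of the 8 tests, 0 were called by edgeR, 0 had an unadjusted p under 0.05 and 0 were called by DESeq2, and the share of all genes called was 0.0% for every chemical. BZIP63 averaged 72.1 ± 31.9 CPM with DMSO, 65.0 ± 5.04 with PI, 61.1 ± 17.7 with AEG, 60.9 ± 11.3 with TYR and 53.7 ± 13.2 with DPI (SD, n = 3). Neighbours in this order differed by less than the larger of their SDs, though DMSO and PI differed by more than the SD of PI. All 12 values with a chemical lay between the lowest and the highest DMSO library. Groups that do not overlap were found for 6.53%, 7.89%, 6.87% and 7.56% of all genes with DPI, PI, AEG and TYR. For BZIP63 the single libraries were 51.9, 41.5 and 67.6 CPM under DPI, 60.7, 70.6 and 63.6 under PI, 43.1, 61.5 and 78.5 under AEG, and 47.9, 68.4 and 66.4 under TYR. The lowest of all 15 was DMSO replicate 2 and the highest DMSO replicate 3.

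The log2 fold change of BZIP63 against DMSO was -0.43 with DPI (95% confidence interval -0.99 to 0.14; edgeR, adjusted p = 0.990). It was -0.15 with PI (-0.71 to 0.41; adjusted p = 0.999), -0.24 with AEG (-0.80 to 0.32; adjusted p = 0.999) and -0.25 with TYR (-0.81 to 0.31; adjusted p = 0.997) in the same edgeR fit. The intervals are wide: they leave room for a fall of BZIP63 by a log2 value of 0.71 or more with each chemical. The 4 comparisons share the DMSO libraries, and without DMSO replicate 3 the log2 fold changes were -0.18 (DPI), 0.10 (PI), 0.0074 (AEG) and 0.0067 (TYR). Without DMSO replicate 2 they were, in the same order, -0.75, -0.48, -0.57 and -0.57.

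BZIP2 averaged 281 ± 33.0 CPM with TYR, 275 ± 71.6 with DMSO, 263 ± 54.5 with AEG, 239 ± 6.08 with PI and 234.0 ± 19.2 with DPI (SD, n = 3). Again, neighbours in the order differed by less than the larger of their SDs, though AEG and PI differed by more than the SD of PI. The single libraries were 214, 252 and 237 CPM under DPI, 242, 243 and 232 under PI, 255, 213 and 321 under AEG, and 293, 306 and 244 under TYR. The highest value was again DMSO replicate 3, and the PI libraries lay closest together.

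The log2 fold change of BZIP2 against DMSO was -0.23 with DPI (95% confidence interval -0.58 to 0.11; edgeR, adjusted p = 0.990). It was -0.20 with PI (-0.55 to 0.14; adjusted p = 0.999), -0.06 with AEG (-0.41 to 0.28; adjusted p = 0.999) and 0.03 with TYR (-0.31 to 0.37; adjusted p = 0.997) in the same edgeR fit. These intervals were narrower than those of BZIP63. A single test over the 5 ZT 2 groups gave an adjusted p of 0.973 for each gene (edgeR, unadjusted p = 0.619 for BZIP63 and 0.408 for BZIP2), with 0.0% of all genes called, 380 genes at an unadjusted p under 0.05 and 4 called by DESeq2. Without DMSO replicate 3 the log2 fold change of BZIP2 was 0.02 with PI and 0.16 with AEG. With TYR it was -0.03 without DMSO replicate 1, -0.11 without DMSO replicate 2 and -0.03 without TYR replicate 2, and with AEG it was 0.07 without AEG replicate 2.

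**Figure D2:**
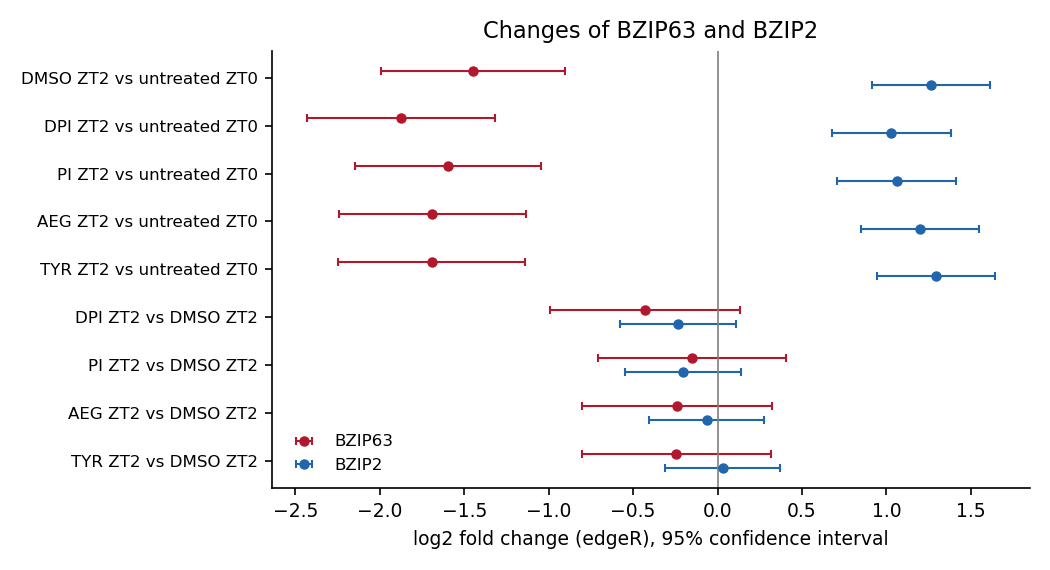
Log2 fold change of BZIP63 (red) and BZIP2 (blue) in each comparison from the edgeR fit, with bars for the 95% confidence interval. Against untreated seedlings the intervals of BZIP63 lie below 0 and those of BZIP2 above it, while the intervals of both genes include 0 for each chemical against DMSO.

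The spread among ZT 2 libraries was larger than counting error in several groups. For BZIP63 the coefficient of variation was 44.2% with DMSO, 29.0% with AEG, 24.5% with DPI, 18.5% with TYR and 7.76% with PI, while counting error alone gives 6.54% to 7.60%. For BZIP2 it was 26.0% with DMSO, 20.7% with AEG, 11.7% with TYR and 8.19% with DPI, where counting error alone gives 3.31% to 3.63%, and 2.54% with PI, where it gives 3.66%. In the untreated libraries it was 8.72% for BZIP63 and 2.73% for BZIP2, where counting error gives 3.92% and 5.13%. The biological coefficient of variation estimated by edgeR was 0.22 for BZIP63, above that of 96.0% of the 500 genes nearest in average level, and 0.15 for BZIP2, above that of 68.4%.

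Across the 15 ZT 2 libraries, where the untreated libraries were left out because they stand apart, log2 CPM of BZIP63 and BZIP2 had a Pearson r of 0.48 (permutation test, p = 0.0718) and a Spearman rho of 0.40 (permutation test, p = 0.145). With deviations from the group means, r was 0.50 (permutation test, p = 0.0603). The permutations did not keep the media apart. Deviations within a group are tied to each other through its mean, which the permutations ignored, so the p for the deviations may be too small. Without DMSO replicate 2 and DPI replicate 2, the libraries farthest from the median of BZIP63, r was 0.43 (permutation test, p = 0.137). This was the 1 relation across samples that was tested. It did not pass in the 15 libraries, and without TYR replicate 1 it did, with an r of 0.57 (permutation test, p = 0.0335). Without DMSO replicate 3 the r was 0.29 (permutation test, p = 0.322).

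Levels of the genes can be compared with each other per length, as TPM, which scales for gene length and depth. Before dawn BZIP63 was the more abundant transcript, at 120 ± 6.80 TPM against 73.2 ± 4.05 TPM for BZIP2 (SD, n = 3), and with DMSO the order was turned round, at 42.7 ± 19.6 against 171 ± 48.7 TPM. By mean TPM, BZIP63 ranked 637th of the 9006 genes tested in untreated seedlings and 1857th with DMSO, and BZIP2 ranked 1078th and 440th. The ratio of BZIP2 to BZIP63 does not depend on how libraries are scaled. It was 0.559, 0.586 and 0.690 in the untreated libraries and 3.07, 6.45 and 3.94 with DMSO. Over all 15 ZT 2 libraries it ran from 3.07 to 6.49 with a median of 4.18, so that every library had more BZIP63 than BZIP2 at ZT 0 and more BZIP2 than BZIP63 at ZT 2. The pair was chosen with these directions known, and the ratio is given without a test.

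**Figure D3:**
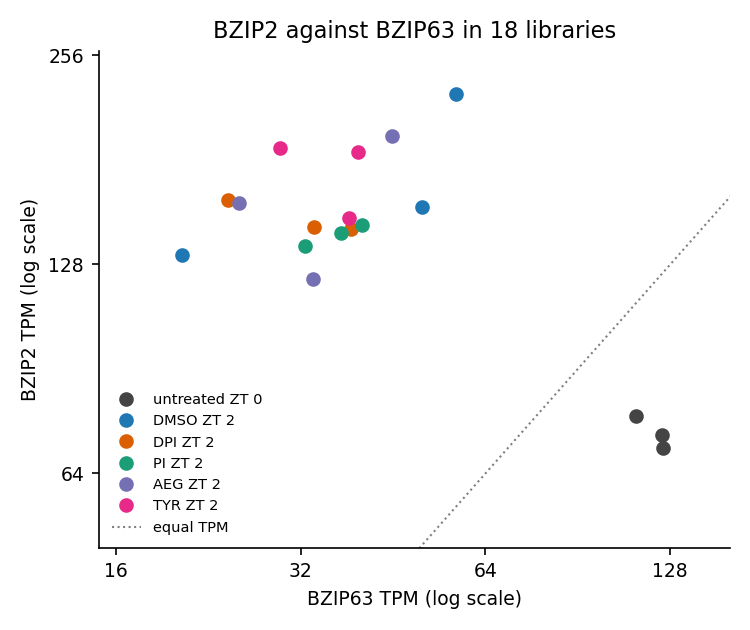
TPM of BZIP2 against TPM of BZIP63 on log scales, with 1 point per library coloured by group and a dotted line where both are equal. The 3 untreated libraries lie below the line, with ratios of 0.559 to 0.690, and all 15 ZT 2 libraries above it, with ratios of 3.07 to 6.49.

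Of the 9 genes of groups C and S1, 7 were in the table and all 7 were tested at dawn. With DMSO 3 rose, 1 fell and 3 did not pass, which is 57.1% called against 35.6% of all genes, with a median log2 fold change of 0.22 against 0.02 for all genes. In group C only BZIP63 was called. BZIP10 had 61.4 ± 3.62 CPM before dawn and 54.6 ± 8.48 with DMSO (SD, n = 3), and BZIP25 had 96.7 ± 11.4 and 92.1 ± 5.28 CPM, with log2 fold changes of -0.17 and -0.07 (edgeR, adjusted p = 0.377 and 0.706). Whether BZIP63 differed from them in its change was not tested.

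In group S1, BZIP11, a regulator of amino acid and trehalose metabolism, rose beside BZIP2. It stood at 15.02 ± 1.24 CPM before dawn and 37.5 ± 0.676 CPM with DMSO (SD, n = 3). Its log2 change was 1.32 (SE 0.19; adjusted p = 2.43e-05 by edgeR). BZIP53, known from seed maturation and the starvation response, rose by a log2 value of 0.60 (SE 0.19; adjusted p = 0.0171 by edgeR), and its groups overlapped. That call was lost without untreated replicate 1, untreated replicate 3 or DMSO replicate 3, with log2 fold changes of 0.59, 0.56 and 0.40 (edgeR, adjusted p = 0.0510, 0.0603 and 0.122). It was also lost with limma on log2(TPM + 1) and log2(TPM + 0.1) (adjusted p = 0.0580 and 0.0594). BZIP44 had between 8 and 44 counts and a log2 change of 0.22 that did not pass (SE 0.39; adjusted p = 0.692 by edgeR).

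BZIP63 and BZIP2 made up most of the measured C/S1 transcripts. Of the summed TPM of the 7 genes, BZIP63 held 37.8% ± 1.75 in the untreated libraries (SD, n = 3) and between 6.98% and 14.5% at ZT 2, with a median of 11.4% over 15 libraries. BZIP2 held 23.1% ± 1.73 in the untreated libraries and between 42.9% and 53.9% at ZT 2, with a median of 46.1%. The sum itself was 318 ± 11.8 TPM before dawn and 360 ± 87.1 TPM with DMSO (SD, n = 3). The summed TPM of the S1 genes was 0.625 ± 0.0437 times that of the C genes before dawn (SD, n = 3) and 1.88 to 3.27 times at ZT 2. BZIP9 of group C and BZIP1 of group S1 were not in the table, so these sums, shares and ratios cover only the 7 genes that were.

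**Figure D4:**
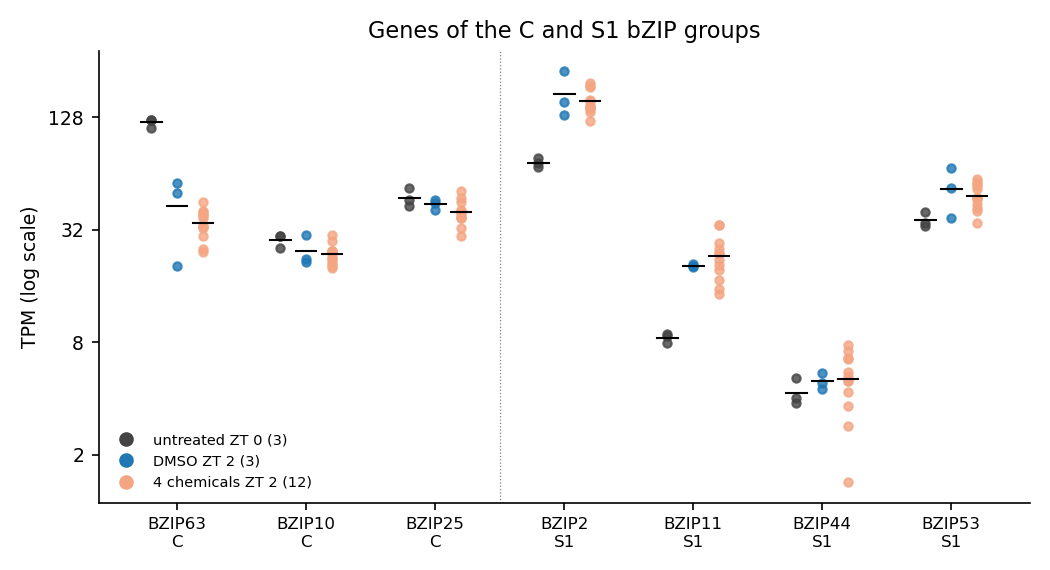
TPM on a log scale of the 7 genes of groups C and S1 in the table, with 1 point per library and a line at the mean of untreated ZT 0 (3 libraries), DMSO at ZT 2 (3 libraries) and the 4 chemicals at ZT 2 (12 libraries). BZIP63 leads before dawn at 120 TPM and BZIP2 leads with DMSO at 171 TPM, while BZIP10 goes from 28.3 to 24.6 TPM and BZIP25 from 47.4 to 43.7 TPM.

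With the chemicals, 0 of the 7 genes were called against DMSO by edgeR, and 2 of 28 tests had an unadjusted p under 0.05, where 223 to 352 of 9006 genes had one for each chemical. These were BZIP11 with AEG, at a log2 fold change of 0.41 (edgeR adjusted p = 0.999), and BZIP25 with TYR, at -0.40 (edgeR adjusted p = 0.997). BZIP11 had 62.4, 43.4 and 43.7 CPM with AEG and 36.9, 38.2 and 37.3 CPM with DMSO, so the AEG libraries were the higher ones. Its TYR libraries (44.3, 38.4 and 44.6 CPM) also lay above the DMSO ones, and its PI libraries (31.2, 27.2 and 31.8 CPM) lay below them. The DPI libraries (45.5, 61.0 and 36.2 CPM) overlapped with DMSO. Groups that do not overlap with DMSO were found for 6.87%, 7.56% and 7.89% of all genes with AEG, TYR and PI. The results of BZIP11 with AEG and BZIP25 with TYR were picked out after the values were seen. Against untreated seedlings BZIP25 was called lower with TYR, at a log2 change of -0.47 (adjusted p = 0.00656 by edgeR).

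Of 15 genes for SnRK1 and sugar sensing, 9 were in the table and tested, and at dawn 4 rose, 1 fell and 4 did not pass (55.6% called against 35.6% of all genes; median log2 fold change 0.20). HXK1, the glucose-sensing hexokinase, went from 84.1 ± 6.02 to 154 ± 28.0 CPM (SD, n = 3; log2 fold change 0.87, edgeR, adjusted p = 0.000144), and TPS1, which makes trehalose 6-phosphate, from 84.5 ± 5.90 to 146 ± 17.97 CPM (log2 fold change 0.79, adjusted p = 4.81e-05). KING1, a subunit gene named for SnRK1, had 189 ± 30.6 CPM before dawn and 67.2 ± 17.97 with DMSO (SD, n = 3), and its log2 fold change of -1.49 (edgeR adjusted p = 8.41e-06) was close in size to that of BZIP63. KIN11, a catalytic subunit of SnRK1, and SNF4, a regulatory one, rose by log2 values of 0.41 and 0.33 (edgeR, adjusted p = 0.0101 and 0.0385). The call of KIN11 was lost without untreated replicate 3 or DMSO replicate 2 (edgeR, adjusted p = 0.0523 and 0.0514). That of SNF4 was lost without TMM scaling, with no count filter, with FSD1 as a covariate, with limma, with the replicate block (adjusted p = 0.0532), with DESeq2 (adjusted p = 0.0507) and without any one of 5 libraries, namely untreated replicates 1, 2 and 3 and DMSO replicates 1 and 3, with log2 fold changes of 0.32, 0.37, 0.32, 0.28 and 0.34. GRIK1, GRIK2, HXK2 and RGS1 had log2 fold changes between 0.11 and 0.20 and did not pass.

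Of 19 genes described as induced by starvation or as targets of C/S1 bZIP proteins, 9 were in the table and tested, and at dawn 0 rose, 5 fell and 4 did not pass (55.6% called against 35.6% of all genes; median log2 fold change -0.82). DYL1, a starvation marker, had the largest decrease, at a log2 fold change of -3.38 (edgeR, adjusted p = 2.80e-07). MCCA and IVD, which act in leucine breakdown, had 187 ± 30.1 and 119 ± 26.3 CPM before dawn and 37.9 ± 9.94 and 67.8 ± 3.41 CPM with DMSO (SD, n = 3), with log2 fold changes of -2.30 and -0.82 (edgeR, adjusted p = 9.56e-08 and 0.00178). TPS9, of the trehalose phosphate synthase family, fell by a log2 value of 1.33 (edgeR, adjusted p = 2.61e-05) and BGAL4 by 1.29 (edgeR, adjusted p = 0.0110). Counts of MCCA and BGAL4 were partly not whole, which can come from reads shared with another gene, and the call of BGAL4 was lost without untreated replicate 2 or DMSO replicate 2 (edgeR, adjusted p = 0.0573 and 0.0581). PRODH1, a proline dehydrogenase gene reported as a target of S1 proteins, had 284 ± 37.1 CPM before dawn and 291 ± 134 with DMSO (SD, n = 3; edgeR, adjusted p = 0.959). BCAT2, D2HGDH and MIOX2 did not pass either. The 5 genes called moved down, as BZIP63 did, and BZIP2 moved up. Of all 9006 genes tested, 1438 were called lower in the same comparison. Whether BZIP63 or BZIP2 acts on any of the 9 genes was not tested.

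With the chemicals against DMSO, 0 of these 9 genes were called by edgeR. For DPI, PI, AEG and TYR in turn, 1, 0, 1 and 4 of them had an unadjusted p under 0.05, as did 322, 223, 302 and 352 of all 9006 genes. Their median log2 fold changes were -0.41, -0.20, -0.46 and -0.48 in that order, beside medians of all genes between -0.0011 and 0.0024, and the DMSO libraries are shared by all 4.

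Of 15 clock genes 8 were in the table, and 6 were tested, of which 3 rose and 3 fell at dawn, where 35.6% of all genes were called. TOC1, an evening gene, and LHY, a morning gene, had log2 fold changes of -1.51 and -1.48 (edgeR, adjusted p = 1.38e-05 and 2.14e-07), near that of BZIP63, and RVE1 had -2.25 (adjusted p = 5.04e-10). LNK1, LUX and LNK2 rose by log2 values of 5.39, 1.07 and 0.63, with part of the LNK1 and LUX counts not whole. The LUX call was lost without untreated replicate 1, DMSO replicate 2 or DMSO replicate 3 (edgeR, adjusted p = 0.0503, 0.0510 and 0.0528), and that of LNK2 without DMSO replicate 3 (edgeR, adjusted p = 0.116) and with limma on log2(TPM + 1) and log2(TPM + 0.1) (adjusted p = 0.0768 and 0.0789). ELF4 and PRR5 did not reach the count filter.

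Outside groups C and S1, 22 genes with bZIP names or descriptions in RefSeq were in the table, and 16 were tested. At dawn 0 rose, 3 fell and 13 did not pass, which is 18.8% called against 35.6% of all genes. GBF2, a G-box binding factor, TGA1, a factor of the salicylic acid response, and AT1G58110 fell by log2 values of 0.65, 0.61 and 0.43 (edgeR, adjusted p = 0.00349, 0.00515 and 0.0338). AT1G58110 lost its call without untreated replicate 2 or 3 or DMSO replicate 2 or 3 (edgeR, adjusted p = 0.0963, 0.122, 0.131 and 0.0635), with FSD1 as a covariate (0.0934), and with limma on log2(TPM + 1) and log2(TPM + 0.1) (0.0547 and 0.0571). GBF3, picked out after its values were seen, had the largest increase that did not pass, at a log2 fold change of 0.69 (edgeR, adjusted p = 0.0530).

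The genes most like each bZIP gene were found by the root mean square difference of log2 CPM, centred on each gene, over all 18 libraries and among the 7485 genes whose average log2 CPM reached 3. For BZIP63 these were OPT4, an oligopeptide transporter gene (0.24), TTL3 (0.25), RABG3B, for a small GTPase (0.26), ACA4, for a calcium pump (0.26), and BGAL1, for a beta-galactosidase (0.27), where the median gene stood at 0.76. For BZIP2 they were PIL6, also PIF5, a phytochrome-interacting factor gene (0.15), SHY2, an auxin repressor gene (0.18), AT2G39950 (0.19), AT3G27540 (0.19) and AT3G26080 (0.19), where the median gene stood at 0.54. BZIP2 stood at 1.10 from BZIP63, which put it at rank 6781 of 7485 in likeness to BZIP63. The measure takes in the change at dawn, in which the 5 genes like BZIP63 had log2 fold changes of -1.84 to -0.99 and the 5 like BZIP2 of 0.90 to 1.19. OPT4 went from 81.7 ± 2.62 to 33.0 ± 7.33 CPM and PIL6 from 168 ± 16.1 to 374 ± 56.9 CPM (SD, n = 3). Part of the SHY2 counts were not whole.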

How the data were processed

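Each gene's estimated counts of reads, FPKM and TPM in each library were deposited by the authors in 1 table, per the file headers: the expected count is an estimated count that need not be whole. HISAT2 2.2.1, RSEM 1.2.22 and genome build TAIR10 are named, without their roles, per the submitters' processing notes. Poly(A) RNA was sequenced as read pairs, per the labels' protocols, and strand is not stated. Lines with a repeated NCBI gene identifier (544) held the same values and were dropped. RefSeq TAIR10.1 gave names, and the upstream sequence of BZIP63; that of BZIP2 is not reported here. Genes other than BZIP63 and BZIP2 were matched by identifier. Of the 29431 lines, 17450 named no gene, held 0 values of single libraries and were dropped, and the genes listed on the others are 41.5% of RefSeq protein-coding genes. Their TPM sum to between 48.4% and 49.0% of the total to which TPM is scaled, so the totals of counts are not the full library depths. As 3.59% of values were not whole, they were rounded before testing. All counts of BZIP63 and BZIP2 were whole.

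Counts were tested with edgeR 4.0.16 in R 4.3.3 (TMM, filterByExpr, quasi-likelihood test, 1 coefficient per group over all 18 libraries, 12 residual degrees of freedom), with Benjamini-Hochberg adjustment over 9006 genes and calls at an adjusted p under 0.05. TMM factors ranged from 0.942 to 1.07. The planned permutation test of the BZIP2 to BZIP63 ratio was run, and its p is not given, because both genes were chosen with their directions known. SE and confidence intervals were derived from the F statistic. Log2 CPM used a prior count of 2. The pipeline was tested on simulated data. Alternatives were DESeq2 1.42.0, limma 3.58.1 on log2(TPM + 1) or log2(TPM + 0.1), other scaling and filters, fits of only the groups compared, a block for replicate number, FSD1 as a covariate and each library left out. Counting intervals and floors cover counting error only. The named genes were BZIP63, BZIP2, the members of 4 gene lists in the table, the bZIP genes called with the 3 largest changes in each direction, and the 5 genes most like each bZIP gene; 2 motifs, GATAA and TATCCA, were added after the others had given no match. BZIP63, BZIP2 and the lists were chosen with earlier results of these data known. The labels name no batch.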

Additional observations from a re-analysis of the deposited data

How the results depend on the processing

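The change of BZIP63 at dawn lay between -1.69 and -1.12 on the log2 scale and that of BZIP2 between 1.04 and 1.41 over the alternatives run, and both stayed called, with adjusted p up to 0.00145 and 0.000153. The 8 changes against untreated seedlings with a chemical also stayed called. Of 1137 values under alternatives, 1068 kept both direction and call (counts: a change of less than 1.5 times). With the replicate block the dawn change was -1.49 for BZIP63 and 1.25 for BZIP2, and no call of these genes changed. Of the other named genes, SNF4 alone lost its call with the block, at a log2 value of 0.33. No label says that the replicate numbers pair the samples, so the numbers were not taken as pairs. Same-numbered libraries of DMSO and untreated, and of each chemical and DMSO, correlated between -0.311 and 0.128 in their deviations from the group means. Same-numbered libraries of different chemicals were not compared. FSD1, however, was high at ZT 2 in replicate 1 of DMSO, DPI, PI and AEG, and in replicate 3 of TYR. Whether same-numbered libraries share a source was not tested. Against DMSO, leaving out 1 library gave, for DPI, PI, AEG and TYR in turn, BZIP63 values of -0.75 to -0.18, -0.48 to 0.10, -0.57 to 0.0074 and -0.57 to 0.0067, and BZIP2 values of -0.38 to -0.0070, -0.35 to 0.022, -0.24 to 0.16 and -0.11 to 0.26. The correlation of both genes was 0.29 to 0.57 when 1 library was left out. Leaving out 1 library gave 3 to 4 calls for SnRK1 and sugar sensing, 4 to 6 for clock genes and 2 to 5 for other bZIP genes, and an adjusted p under 0.01 gave 3 for SnRK1 and sugar sensing. Dawn changes near 0 turned with 1 library left out: BZIP25 -0.15 to 0.019, GRIK1 -0.0021 to 0.32, GRIK2 -0.0068 to 0.25, RGS1 -0.083 to 0.35, PRODH1 -0.26 to 0.37 and MIOX2 -0.61 to 0.28. With the FSD1 covariate BZIP25 was 0.030 and RGS1 -0.029, and on log2(TPM + 1) and log2(TPM + 0.1) RGS1 was -0.035 and -0.039 and PRODH1 -0.13 and -0.14. The cause of these shifts was not tested. BZIP44 had 8 to 44 counts, so its values carry more counting error than those of BZIP63 and BZIP2.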
